A study of Rattus norvegicus with 6 samples.

Results

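Complement is a cascade of plasma proteins that tags surfaces for uptake, attracts leukocytes and punctures membranes. Recognition proteins (C1q, mannose-binding lectins) switch on serine proteases, these cleave C4, C2 and C3, and the products assemble into convertases that release the attractants C3a and C5a. Cleaved C5 then gathers C6, C7, C8 and C9 into the membrane attack complex. Hepatocytes make most of the circulating components and raise many of them in an acute phase response, whereas C1q and properdin come mainly from macrophages and other myeloid cells.

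The genes described here are 32 complement components, regulators and receptors, chosen by symbol. Of these, 31 have a row under that symbol among the 20104 genes of the deposited tables, and all 31 passed the filter on low counts. Cd59, which blocks the last step of the membrane attack complex, is listed only as Cd59b, and its values are given with the other complement genes. By their best known source, 22 members were classed as hepatocyte-secreted, 6 as macrophage-derived (C1qa, C1qb, C1qc, Cfp, C3ar1 and C5ar1) and the remaining 4 (C7, Cfd, Cd55 and Cd59) in neither class. The classes come from general knowledge of the genes and not from these libraries.

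RNA was sequenced from the healing liver tissue of rats, 14 days after liver trauma that had been treated with a haemostatic dressing. The liver was treated with AKOC in 3 libraries, and 3 more came from livers treated with Quik-clot, which served as the control. The labels do not expand the abbreviation AKOC; the title of the study speaks of cotton carrying anchored kaolin scales. The sources used here give no strain, sex or age of the rats, and no group without a dressing was analysed here. Whether each library stands for its own rat is not said, and p-values therefore reflect a spread between samples that may be technical. Total counts ran from 40402312 to 41455378 per library. The hepatocyte markers Alb and Ttr were abundant in every library, and 10 hepatocyte markers together took 13.5% to 19.1% of the counts.

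Levels of one gene across libraries are given as CPM, counts scaled to a common library size with TMM factors (trimmed mean of M values). Levels of different genes are compared as FPKM, which also divides by transcript length. Differences are log2 fold changes, AKOC over Quik-clot, ± their standard error (SE, n = 3 per dressing), from the edgeR quasi-likelihood test across 13872 genes.

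The liver expressed nearly the whole cascade, at levels spanning several orders of magnitude. C3, the protein on which all activation routes converge, stood highest at 3166 ± 599 FPKM (mean ± SD over 6 libraries). Vitronectin (Vtn), a plasma protein that keeps the attack complex out of membranes, followed at 2004 ± 253 FPKM, and C9, the pore-forming subunit, at 1347 ± 458 FPKM. In every library C3 exceeded Vtn, Vtn exceeded C9 and C9 exceeded C4bpa. These 3 genes made up 47.9% to 56.6% of the summed FPKM of the 31 members. The next places were held by the regulators C4bpa (781 ± 158 FPKM) and Cfi (685 ± 42.5 FPKM) and the protease Cfb (654 ± 66.4 FPKM), and C4bpa and Cfi did not keep one order in all libraries.

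At the other end were the receptors and the membrane regulator. C5ar1 and C3ar1, which bind the attractants C5a and C3a on myeloid cells, averaged 1.84 ± 0.66 and 0.76 ± 0.18 FPKM. Cd55, which dissolves convertases on cell surfaces, was close to the limit of measurement, with 9 to 18 counts per library and 0.056 ± 0.013 FPKM. The 22 hepatocyte-secreted members together took 3.33%, 3.84% and 4.52% of all counts in Quik-clot replicates 1, 2 and 3 and 3.58%, 4.57% and 3.30% in the AKOC libraries. The 6 macrophage-derived members took 0.031% to 0.067%. Neither summed share separated the dressings.

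**Figure D1:**
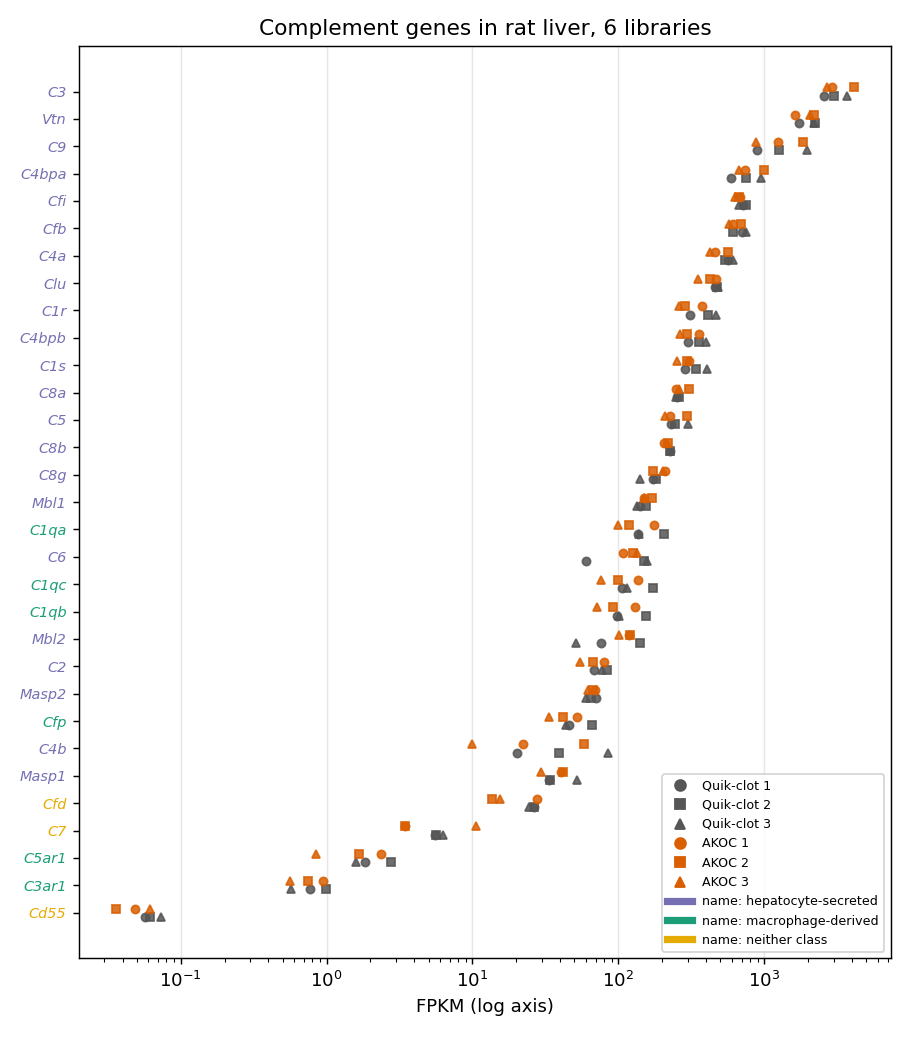
FPKM (log axis) of the 31 measured complement genes in each of 6 libraries, ordered by mean; symbols mark the replicate and colour the dressing, and the colour of the gene name its source class. C3, Vtn and C9 lead, the receptors and Cd55 lie lowest, and the points of the dressings are intermixed for nearly every gene.

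No member passed the test between the dressings. With edgeR, 0 of 31 members were called at a Benjamini-Hochberg adjusted p under 0.05, and the adjusted values ran from 0.329 to 0.998, and 0 of all 13872 genes (0%) were called. DESeq2 and limma-voom also called 0 members, although DESeq2 called 280 genes in all. At an unadjusted p under 0.05 a single member, C8g, was found (3.2% of 31), against 12.5% of all genes tested. C8g was also the only member whose CPM did not overlap between the dressings, where 18.4% of all genes did not overlap. Genes whose CPM was lower after AKOC without overlap made up 8.84% of all genes and 0 of the members. Log2 fold changes were positive in 11 members (48% of all genes) and negative in 20, with a median of -0.05, beside a median of -0.01 over all genes.

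The precision of these comparisons differed between genes. For 24 of the 31 members the 95% interval of the log2 fold change lay within ±1, so that a difference of 2-fold or more in either direction was outside the interval. The exceptions were C3, C4b, C9, Mbl2, C5ar1, C7 and Cd55. C3 had a log2 fold change of 0.13 with an interval of -1.37 to 1.63, and C4b one of -0.64 with an interval of -2.45 to 1.16, so for these genes sizeable differences were not detectable with 3 libraries per dressing. Among the most tightly measured were C8g (0.32, interval 0.08 to 0.57) and Masp2 (0.11, interval -0.15 to 0.38). Mbl1 (0.21, interval -0.13 to 0.56) and C8b (-0.01, interval -0.39 to 0.37) came next. Cfi had -0.03 with an interval of -0.47 to 0.41.

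**Figure D2:**
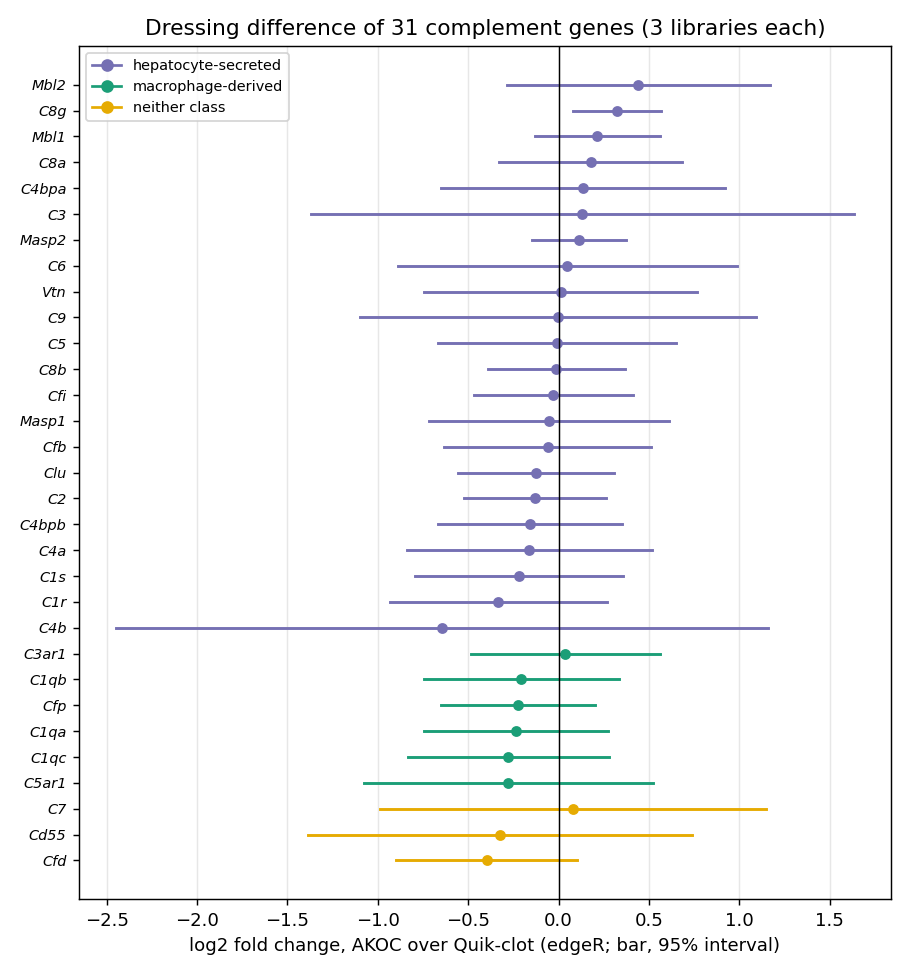
Log2 fold change of each measured complement gene, AKOC over Quik-clot (points), with its 95% interval from edgeR (bars), grouped by source class, 3 libraries per dressing. Only the interval of C8g, from 0.08 to 0.57, excludes 0, and C4b and C3 have the widest intervals.

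Recognition proteins start the cascade. C1q, built from the chains encoded by C1qa, C1qb and C1qc, binds antibody and dying cells. C1qa stood at 121, 193 and 154 CPM in Quik-clot replicates 1, 2 and 3 and at 162, 131 and 105 CPM in AKOC replicates 1, 2 and 3. The groups overlapped, with the highest value in Quik-clot replicate 2 and the lowest in AKOC replicate 3 (log2 fold change -0.23 ± 0.22). C1qb and C1qc gave -0.21 ± 0.23 and -0.28 ± 0.24. The 3 chains kept nearly constant proportions: the FPKM ratio of C1qa to C1qb lay between 1.28 and 1.39 and that of C1qc to C1qb between 1.04 and 1.14 over all libraries.

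Mannose-binding lectins, which recognise sugars on microbes, showed unequal spread. Mbl2 was measured at 235, 456 and 198 CPM after Quik-clot and at 381, 457 and 370 CPM after AKOC. All AKOC libraries lay above Quik-clot replicates 1 and 3, but Quik-clot replicate 2 lay close to the highest AKOC library. The log2 fold change of Mbl2 was 0.44 ± 0.31 (adjusted p = 0.572, edgeR) with all libraries and 0.90 without Quik-clot replicate 2 (adjusted p = 0.0979, edgeR; from 0.0979 to 0.954 over all alternatives). Mbl1 varied less, standing at 157, 181 and 187 CPM after Quik-clot and at 175, 238 and 197 CPM after AKOC (0.21 ± 0.15).

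The proteases carry the signal from recognition to C3. C1r and C1s, the enzymes bound to C1q, were measured at 742, 1045 and 1400 CPM and 781, 978 and 1393 CPM after Quik-clot. After AKOC they stood at 936, 853 and 742 CPM and 876, 1011 and 822 CPM. Quik-clot replicate 3 was the highest library for both, and the other libraries overlapped (-0.33 ± 0.26 and -0.22 ± 0.24). C2, the protease of the classical and lectin convertase, and Cfb, its counterpart in the alternative pathway, had log2 fold changes of -0.13 ± 0.17 and -0.06 ± 0.24. Masp1 and Masp2, the lectin pathway proteases, had -0.05 ± 0.28 and 0.11 ± 0.11.

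Cfd, factor D, cleaves factor B and is known as a product of fat cells. It was measured at 19.6, 20.6 and 22.7 CPM after Quik-clot and at 21.6, 12.5 and 13.6 CPM after AKOC, so that AKOC replicate 1 lay among the Quik-clot libraries and AKOC replicates 2 and 3 below them (-0.40 ± 0.21, adjusted p = 0.473, edgeR). Without AKOC replicate 1 the log2 fold change was -0.68 (adjusted p = 0.226, edgeR; from 0.226 to 0.877 over all alternatives). The fat cell marker Adipoq had 0 CPM in every Quik-clot library and at most 0.027 CPM after AKOC, and Cidec, which hepatocytes also express, was the only 1 of 6 listed fat cell markers to pass the filter.

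C3 and the C4 genes form the core of the convertases. C3 stood at 11710, 14182 and 20837 CPM after Quik-clot and at 13729, 22987 and 14467 CPM after AKOC. The highest values, in Quik-clot replicate 3 and AKOC replicate 2, came from different dressings. The window around the start of C3, from 250 bases before to 50 bases after, in the RefSeq table on GRCr8 (chr9:2201290-2201589, minus strand), is shown because C3 was the most abundant member. Capitals mark the match to the C/EBP motif TTGCNNAA, searched on both strands.

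C3: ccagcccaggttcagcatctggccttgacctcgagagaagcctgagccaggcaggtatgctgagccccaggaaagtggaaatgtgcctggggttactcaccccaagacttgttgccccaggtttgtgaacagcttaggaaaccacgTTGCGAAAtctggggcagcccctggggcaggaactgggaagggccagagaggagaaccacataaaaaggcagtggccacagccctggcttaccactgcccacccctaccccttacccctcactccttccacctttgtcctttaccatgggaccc

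Windows were found for 21 members, and the C/EBP motif occurred in 6 of the 15 hepatocyte-secreted ones (C1r, C3, C6, C8a, C8b and C4bpa), in 0 of the 4 macrophage-derived ones and in 10.6% of all 33469 windows of the same length. The STAT motif TTCNNNGAA occurred in 3 of the same 15 (C8a, C4bpb and Vtn), in 1 of the 4 (C1qa) and in 8.87% of all windows. A match describes letters in the window and not a bound site.

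C4a and C4b are near-identical copies of the C4 gene, the names here being those of rat genes and not of the cleavage products. They differed in how much they varied between libraries. C4a stood at 2706, 2680 and 3601 CPM after Quik-clot and at 2278, 3350 and 2410 CPM after AKOC, a 1.58-fold range. C4b stood at 96.2, 197 and 504 CPM after Quik-clot and at 110, 344 and 56.3 CPM after AKOC, an 8.96-fold range and the widest of the 31 members. C4b made up 3.44%, 6.85% and 12.3% of the FPKM of the pair after Quik-clot, and 4.61%, 9.33% and 2.28% of it after AKOC. The share did not separate the dressings (exact permutation test, two-sided, p = 0.6, n = 3 per dressing; 0.7 after Benjamini-Hochberg adjustment over 10 ratios).

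The log2 fold change of C4b was -0.64 ± 0.77, and it turned to 0.22 without Quik-clot replicate 3. That of C4a was -0.16 ± 0.29. Reads from stretches that both copies share may have been split, dropped or assigned to either gene by the counting, so the share of C4b is uncertain. The windows around both starts are shown because the pair differs so much in variation: 280 of 309 aligned positions (90.6%) were identical, with 11 mismatches and 18 gap positions. Capitals mark bases with no identical partner, either mismatched or in a gap, on GRCr8 at chr20:4010107-4010406 and chr20:4201729-4202028, both on the plus strand.

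C4a: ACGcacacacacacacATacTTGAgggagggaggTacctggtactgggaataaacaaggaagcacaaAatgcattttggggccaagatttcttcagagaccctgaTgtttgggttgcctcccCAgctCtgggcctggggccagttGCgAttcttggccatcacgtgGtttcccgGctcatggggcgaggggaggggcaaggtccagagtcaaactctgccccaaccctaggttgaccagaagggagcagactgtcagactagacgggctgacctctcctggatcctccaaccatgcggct

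C4b: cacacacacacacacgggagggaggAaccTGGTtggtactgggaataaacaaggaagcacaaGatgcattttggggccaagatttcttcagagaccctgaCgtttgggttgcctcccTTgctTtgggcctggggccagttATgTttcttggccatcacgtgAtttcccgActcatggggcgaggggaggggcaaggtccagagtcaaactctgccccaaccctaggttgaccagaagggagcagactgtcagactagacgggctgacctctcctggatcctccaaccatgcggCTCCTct

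Both windows hold the E-box CACGTG, which 6.42% of all windows hold, and neither holds the C/EBP or the STAT motif. The marked bases lie upstream of the start, except for a single run in a gap near the end of the C4b window. The E-box starts at -90 in C4a and at -95 in C4b, so the C4b window reaches further past the shared stretch. That run therefore reflects where the C4a window ends and does not show a difference between the genes. The capitals ACG that open the C4a window lie before the first base of the C4b window, and likewise do not show a difference. Both runs are counted among the 18 gap positions and lower the identity of 90.6%.

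The terminal components build the membrane attack complex. C8g encodes the gamma chain of C8, a lipocalin joined to the alpha chain. It was measured at 123, 134 and 124 CPM after Quik-clot and at 155, 151 and 170.0 CPM after AKOC. All 3 AKOC libraries lay above all Quik-clot libraries, at a log2 fold change of 0.32 ± 0.10 that did not pass the adjustment (unadjusted p = 0.0163, adjusted p = 0.329, edgeR). In FPKM, which is scaled to library totals and not by TMM, C8g overlapped, at 173, 180 and 141 after Quik-clot and 210.3, 172 and 204 after AKOC. With library totals only, the unadjusted p was 0.175 and the log2 fold change 0.24 (adjusted p = 0.679, edgeR; from 0.19 to 0.756 over all alternatives).

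The other C8 chains are encoded by C8a and C8b, with log2 fold changes of 0.18 ± 0.21 and -0.01 ± 0.16. On CPM both overlapped, but in FPKM C8b was lower after AKOC without overlap. It stood at 227, 227 and 225 FPKM after Quik-clot and at 206, 219 and 214 FPKM after AKOC. The share of all genes without overlap in FPKM was not counted. Because a ratio within a library does not depend on scaling, the chains were also set against each other. The FPKM ratio of C8a to C8b was 1.11, 1.14 and 1.11 after Quik-clot and 1.2, 1.38 and 1.21 after AKOC, without overlap. The exact permutation test gave p = 0.1 for it (two-sided, n = 3 per dressing), the smallest p that 3 against 3 allows, and 0.5 after adjustment over 10 ratios. The ratio of C8g to C8b was 0.77, 0.79 and 0.63 after Quik-clot and 1.02, 0.79 and 0.95 after AKOC, with AKOC replicate 2 just below Quik-clot replicate 2 (exact p = 0.2; 0.5 adjusted).

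C9 and C6 varied widely between libraries of the same dressing, and no difference between the dressings was detected. C9 was measured at 1672, 2471 and 4522 CPM after Quik-clot and at 2431, 4275 and 1943 CPM after AKOC (-0.003 ± 0.47). C6 stood at 171, 451 and 560 CPM after Quik-clot and at 319, 449 and 454 CPM after AKOC, so that Quik-clot replicate 1 was the one low library (0.05 ± 0.40; -0.31 without it). C5, which starts the attack complex, had -0.01 ± 0.28. C7, made largely by mesenchymal and endothelial cells, stood at 23.8, 25.1 and 33.4 CPM after Quik-clot and at 15.3, 18.3 and 53.4 CPM after AKOC. AKOC replicate 3 was the highest library for C7 while AKOC replicates 1 and 2 were the lowest, and the log2 fold change of 0.08 ± 0.45 became -0.70 without AKOC replicate 3 (adjusted p = 0.644, edgeR; from 0.644 to 0.9996 over all alternatives). Summed mesenchymal markers stood at 105, 236 and 209 CPM after Quik-clot and at 222, 212 and 261 CPM after AKOC. AKOC replicate 3 was highest for both, but Quik-clot replicate 1, and not AKOC replicate 1 or 2, was lowest for the markers. The part of mesenchymal cells in the C7 values was not tested.

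**Figure D3:**
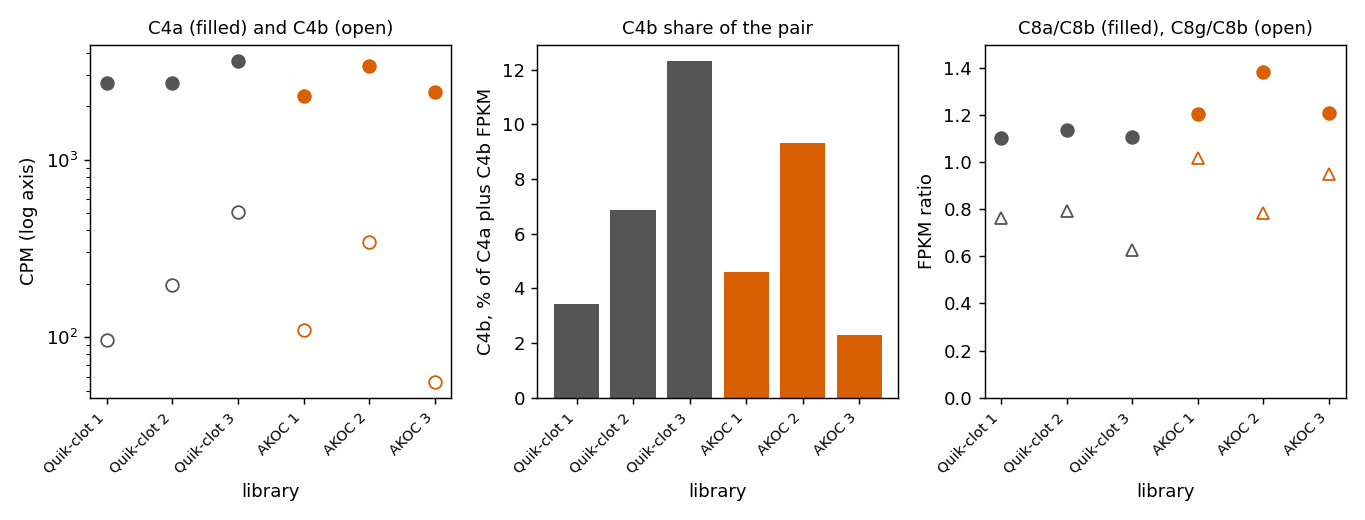
Left, C4a (filled) and C4b (open) in CPM on a log axis; centre, C4b as a percentage of the summed FPKM of C4a and C4b; right, FPKM ratios of C8a (filled) and C8g (open) to C8b; one mark or bar per library, grey for Quik-clot and orange for AKOC. The C4b share runs from 2.28% to 12.3% without separating the dressings, and the C8a to C8b ratio lies above 1.14 in every AKOC library and at or below 1.14 in every Quik-clot library.

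Fluid-phase regulators were abundant and showed no difference that passed the test. Factor I (Cfi), which cleaves C3b and C4b, had the narrowest range of the members on TMM-scaled CPM, 1.18-fold over the 6 libraries. In FPKM it ran from 629.9 to 754, and C8b, from 206 to 227, and Masp2, from 59.7 to 69.8, had narrower relative ranges. The chains of C4b-binding protein, a cofactor of factor I, were set against each other: the ratio of C4bpa to C4bpb in FPKM was 1.95, 2.08 and 2.37 after Quik-clot and 2.05, 3.36 and 2.57 after AKOC, with overlap (exact permutation p = 0.3; 0.6 adjusted). Their log2 fold changes were 0.14 ± 0.33 and -0.16 ± 0.22. Vtn had 0.01 ± 0.32, and clusterin (Clu), a chaperone that also binds the attack complex, -0.12 ± 0.18. Properdin (Cfp), which stabilises the alternative convertase, stood at 61.0, 91.0 and 71.9 CPM after Quik-clot and at 71.1, 68.2 and 52.4 CPM after AKOC (-0.22 ± 0.18).

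The receptor C5ar1 stood at 6.01, 9.44 and 6.43 CPM after Quik-clot and at 7.99, 6.75 and 3.29 CPM after AKOC (-0.28 ± 0.34). C3ar1 stood at 5.68, 7.68 and 5.27 CPM after Quik-clot and at 7.32, 6.89 and 4.90 CPM after AKOC (0.04 ± 0.22). For both receptors the highest library was Quik-clot replicate 2 and the lowest AKOC replicate 3. Without AKOC replicate 3 the value for C5ar1 was 0.02.

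The hepatocyte-secreted and macrophage-derived members ordered the 6 libraries in different ways, and neither order separated the dressings. Among the 22 hepatocyte-secreted members, 13 were highest in Quik-clot replicate 3 and 8 in AKOC replicate 2, and 12 were lowest in Quik-clot replicate 1. In 15 of the 22 (68.2%) Quik-clot replicate 3 and AKOC replicate 2 held both top places, against 5.7% of all genes tested. The same was true of 30.0% of the 10 hepatocyte markers and 30.8% of the 26 other complement genes tested. On FPKM the same held for 6 of 22 (C3, C9, C4bpa, C5, C4b and Masp1), against 1.4% of all genes, and the TMM factors of the 2 libraries were the lowest of the 6, at 0.902 and 0.904. This pattern was noticed in the data and is a description.

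The acute phase list shared the same 2 highest libraries and the lowest one, Quik-clot replicate 1, while the order of the other 3 differed. Its median log2 CPM, relative to the mean of the 6 libraries, was 0.95 in Quik-clot replicate 3 and 0.37 in AKOC replicate 2, and between -0.64 and -0.17 in the other 4. The median of the hepatocyte-secreted complement members was 0.35 and 0.26 in the same 2 libraries and between -0.29 and -0.05 in the others. Haptoglobin (Hp), an acute phase protein outside complement, stood at 28213 and 25229 CPM there and at 9006 to 14270 CPM elsewhere. Hepcidin (Hamp), an iron-regulating member of the acute phase list, did not share this order, with 822, 460 and 56.7 CPM after Quik-clot, compared with 177, 63.8 and 27.2 CPM after AKOC. Neutrophil markers did not share that order: summed, they stood at 106 CPM in Quik-clot replicate 3 but at 30.1 CPM in AKOC replicate 2, below the 46.8 CPM of AKOC replicate 1. The part of the acute phase state in the dressing comparison was not tested beyond leaving these 2 libraries out, which gave a median log2 fold change of 0.01 for the hepatocyte-secreted members, beside -0.01 with all 6.

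All 6 macrophage-derived members were highest in Quik-clot replicate 2 and lowest in AKOC replicate 3. Their summed level was 389, 629 and 493 CPM after Quik-clot, compared with 513, 441 and 332 CPM after AKOC, and 5 of 6 had a negative log2 fold change, with a median of -0.23. Leaving out Quik-clot replicate 2 gave a median of -0.05, and leaving out AKOC replicate 3 gave -0.06. The list of 12 macrophage and Kupffer cell markers went the same way: 11 of 12 were negative, with a median of -0.36. Their summed level of 1659 CPM in Quik-clot replicate 2 and 851 CPM in AKOC replicate 3 marked the same extremes. Cd68, Cd163, Csf1r, Marco, Clec4f and Vsig4 shared both extremes, and the other markers did not. Mrc1, Cd14 and Mertk stood at 147, 53.6 and 15.6 CPM in Quik-clot replicate 2, the lowest of the Quik-clot libraries. Timd4 and Adgre1 were lowest in AKOC replicate 1, and Cd5l in Quik-clot replicate 1. At an unadjusted p under 0.05, 5 of these 12 markers were lower after AKOC (5.69% of all genes were), but 0 of the 6 macrophage-derived complement genes. The same direction was seen in T and NK cell, sinusoidal endothelial and bile duct markers, but not in every cell type, and 0 markers were called. Of the bile duct markers tested, 3 of 4 were negative (median -0.61, 1 at an unadjusted p under 0.05). Mesenchymal markers went mostly the other way, with 6 of 9 positive and a median of 0.32. Neutrophil and B cell markers were split, with 2 positive and 2 negative in each list. All 8 T and NK cell markers tested were negative (median -0.85, 3 at an unadjusted p under 0.05). Their sum was highest in Quik-clot replicate 2 (114 CPM) and lowest in AKOC replicate 3 (51.9 CPM). Cd4 alone held 75.6 and 41.4 CPM of these 2 sums. Gzma (14.0 CPM) and Prf1 (10.6 CPM) were also highest in Quik-clot replicate 2, beside at most 4.30 and 4.27 CPM in any other library. Cd8a and Nkg7 were lowest in AKOC replicate 1, at 1.21 and 0.81 CPM. All 6 sinusoidal endothelial markers were negative too (median -0.24, 2 at an unadjusted p under 0.05). The part of these cell types in the complement values was not tested. In bulk tissue, fewer macrophages and less RNA per macrophage cannot be told apart.

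Set against macrophage markers within each library, C1q did not separate the dressings. The summed FPKM of the C1q chains was 0.68, 0.68 and 0.71 times that of the 12 markers after Quik-clot and 0.79, 0.63 and 0.71 times after AKOC (exact permutation p = 0.7, n = 3 per dressing; 0.7 adjusted over 10 ratios). Against Cd163 alone, a scavenger receptor of resident macrophages, the ratio was 17.5, 22.7 and 19.2 after Quik-clot and 26.0, 23.4 and 22.4 after AKOC. There AKOC replicate 3 lay just below Quik-clot replicate 2 (exact permutation p = 0.2; 0.5 adjusted).

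**Figure D4:**
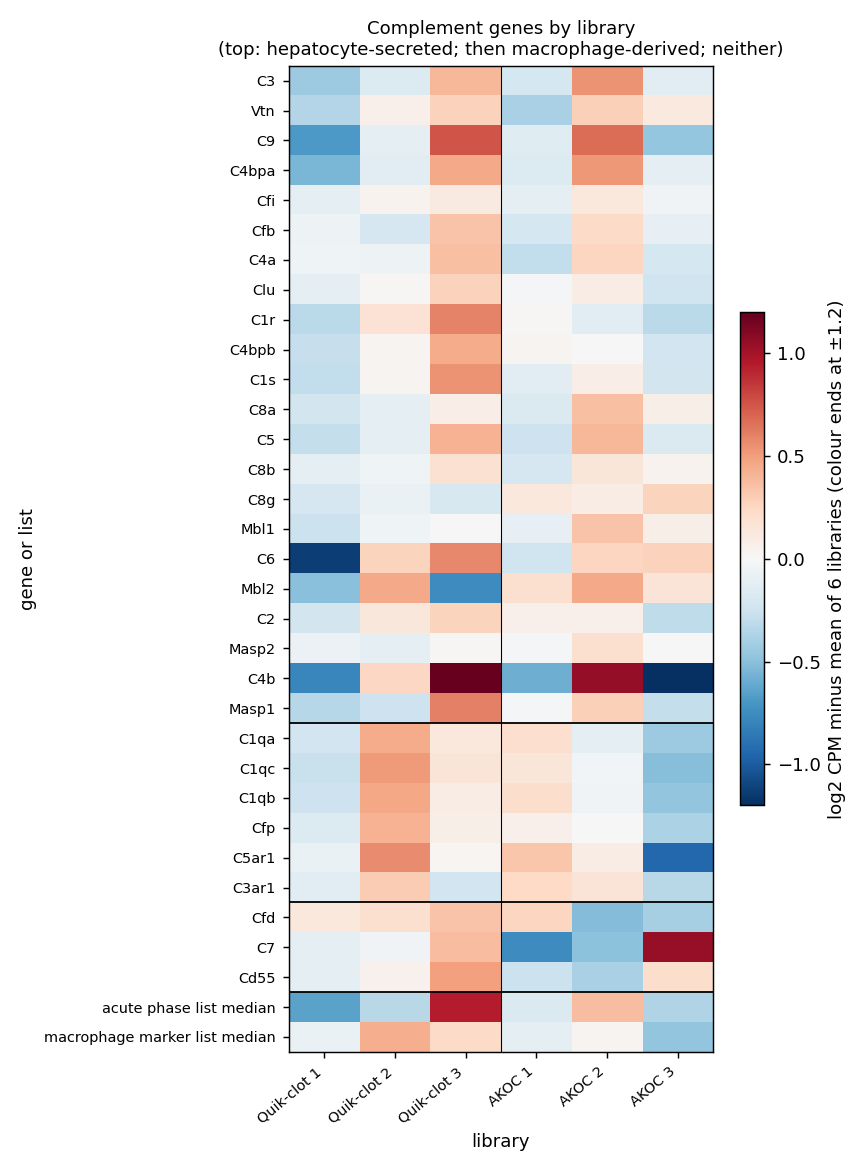
Log2 CPM of each complement gene minus its mean over the 6 libraries (colour), with the medians of the acute phase and macrophage marker lists below; rows are grouped as hepatocyte-secreted, macrophage-derived and neither. The hepatocyte-secreted genes are mostly high in Quik-clot replicate 3 and AKOC replicate 2, and the macrophage-derived genes in Quik-clot replicate 2.

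Of 33 further complement genes listed beside the members, 26 were tested, with 13 positive and 13 negative log2 fold changes and a median of -0.02. None was called over all genes by edgeR. At an unadjusted p under 0.05, 4 were higher and 0 lower after AKOC, against 6.78% and 5.69% of all genes. They were Colec10, a liver collectin that triggers the lectin pathway (0.86 ± 0.31), Cfhr2 (0.35 ± 0.13), the membrane inhibitor Csmd1 (2.03 ± 0.70) and Cd59b (0.28 ± 0.11). Cd59b stood at 66.3, 79.7 and 66.8 CPM after Quik-clot and at 85.1, 88.6 and 84.7 CPM after AKOC, without overlap, where 9.53% of all genes were higher after AKOC without overlap. Colec10 stood at 28.0, 51.6 and 51.6 CPM after Quik-clot and at 103, 82.0 and 52.8 CPM after AKOC. In FPKM, Cd59b and Colec10 overlapped, whereas Cfhr2 and Csmd1 did not, and the share of all genes without overlap in FPKM was not counted. Quik-clot replicate 2 lay above AKOC replicate 3 for Cd59b (42.52 against 40.15 FPKM) and for Colec10 (7.82 against 7.11 FPKM). C1 inhibitor (Serping1), a plasma regulator that blocks C1r and C1s, had -0.35 ± 0.32.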

How the data were processed

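The deposited count table holds raw whole-number reads for each gene. A second deposited table gives FPKM, which the authors' values show to be the count divided by transcript length and library total (largest relative deviation 8.76e-07), so both hold one measurement. Per the submitters' processing notes, fastp, HISAT2, HTSeq and the build mRatBN7.2 were used; the sources used here give no versions, annotation or strand setting. Replicate numbers and groups came from the sample titles, with 40402312 to 41455378 counts per library.

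The main test was the edgeR 4.0.16 quasi-likelihood F test (R 4.3.3, two-sided, new method), with the dressing as the only term. It used a filterByExpr minimum count of 10 and total of 15, TMM, and Benjamini-Hochberg adjustment over 13872 genes at 0.05. The SE was the log2 fold change divided by the root of F. Alternatives used DESeq2 1.42.0, limma 3.58.1 on counts and on log2(FPKM + 1) or log2(FPKM + 0.1), other size factors and filters, a replicate block, and the omission of each library in turn; a legacy fit and the joint omission of 2 libraries were chosen after seeing the data. On simulated counts for this comparison (13872 genes, 200 changed) edgeR found 37.1% of the 2-fold, 92.9% of the 4-fold and 85.3% of the 8-fold changes. It made 8 false calls. Each simulated gene had the variability typical of its level, so these rates do not hold for genes that varied more, such as C4b.

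The members, lists and tests were chosen with earlier results of these data known. All members are accounted for. Those of smallest unadjusted p and the most abundant are given in every library, others were added after their values were seen, and of the further complement genes those at an unadjusted p under 0.05 are named; 1 further gene is not reported here. Ratios were compared with an exact permutation test on log2 values. Promoter windows are RefSeq's on GRCr8, matched by symbol. No pair of libraries within a dressing agreed within sampling noise (chi-square per degree of freedom 142 or more).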

Additional observations from a re-analysis of the deposited data

How the results depend on the processing

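Depth limited Cd55, with 9 to 18 counts per library. The count of complement members called stayed at 0 under all 17 alternatives, and the member medians moved by less than the spread between libraries. Genes called over the whole table numbered 280 with DESeq2, 1 with the replicate block, 1 leaving out both Quik-clot replicate 3 and AKOC replicate 2, and 0 to 18 without a single library (18 without Quik-clot replicate 2, 10 without AKOC replicate 1 and 2 without AKOC replicate 2). Members at an unadjusted p under 0.05 numbered 2 with limma-voom (C8g and Cfd; 13.9% of all genes), and 0 with library totals (8.66% of all genes), on log2(FPKM + 1) (8.12%), on log2(FPKM + 0.1) (8.28%), with the replicate block (9.49%) and leaving out both libraries (6.31%). Without a single library they numbered 1 to 2, where 7.62% to 17.4% of all genes passed. The replicate numbers did not pair the samples, since same-numbered libraries had correlations of -0.072, -0.082 and -0.201 in their deviations from the group means.

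Of 526 fold changes of members under the alternatives, 469 kept their direction and 57 did not, all between values that missed the threshold; the cause was not tested. With limma-voom, the log2 fold change was 0.018 for C5, -0.12 for C7, 0.0060 for C8b and 0.056 for C9. With library totals only, it was -0.042 for C3ar1 and -0.064 for Vtn. With no filter, it was 0.0015 for C9. With a mean CPM of at least 1, it was 0.0013 for C9. On log2(FPKM + 1), it was -0.15 for C7, -0.018 for C3ar1 and -0.067 for Vtn. On log2(FPKM + 0.1), it was -0.21 for C7, -0.036 for C3ar1 and -0.067 for Vtn. With the replicate block, it was -0.14 for C7, 0.056 for C9 and 0.00024 for Masp1. Leaving out both libraries, it was 0.0017 for C8b, 0.076 for C9, 0.15 for Masp1, 0.014 for C4bpb, 0.012 for Cd55 and -0.13 for C3ar1. Without a single library the log2 fold change ranged from -0.15 to 0.40 for C3, -0.31 to 0.39 for C6, -0.70 to 0.38 for C7, -0.12 to 0.45 for C4bpa, -0.076 to 0.22 for C3ar1, -0.14 to 0.18 for Vtn, -0.39 to 0.039 for C1s and -1.68 to 0.22 for C4b. It ranged from -0.25 to 0.22 for C5, -0.094 to 0.083 for C8b, -0.41 to 0.48 for C9, -0.21 to 0.11 for Cfb, -0.11 to 0.023 for Cfi, -0.22 to 0.31 for Masp1, -0.32 to 0.054 for C4bpb and -0.54 to 0.020 for C5ar1.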
